A study of Mus musculus with 36 samples.

Results

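The 10 genes described here were Fos, Jun, Junb, Jund, Egr1, Ier2, Klf6, Klf10, Myc and Zfp36, a set of immediate early and AP-1 genes. They were the rows of the deposited count table with these symbols, 10 of 38283 genes in the table, and all 10 were among the 13945 genes with enough counts to be tested. Liver RNA was sequenced from 36 male mice, 6 in each of 6 groups. Wild-type (WT) C57Bl/6J mice and mice heterozygous for the Pik3r1 Y657* mutation (WT/Y657*) were kept on chow to 16 weeks of age. The liver was taken from mice fed ad libitum, from mice fasted for 16 h, or from mice fasted for 16 h and then given chow again for 6 h (refed). The mutation is a knock-in of a human stop variant in the germline and so is carried by every tissue, not only by the liver. Whole liver was sampled, so fewer cells of a type and less RNA per cell cannot be told apart in any of the values below.

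Immediate early genes are transcribed within minutes of a signal at the cell surface, without new protein synthesis, chiefly through the ERK, JNK and p38 kinases acting on SRF, ternary complex factors and CREB. Their mRNAs are short-lived, many of them because of AU-rich elements (AREs) that proteins such as tristetraprolin bind. Fos and the Jun proteins pair through leucine zippers to form AP-1, the factor that binds the TGANTCA motif. In the liver these genes are known for their surge after partial hepatectomy and injury, and for their response to growth factors, insulin and glucagon. Pik3r1 encodes the p85α, p55α and p50α regulatory subunits of phosphoinositide 3-kinase, which carries the insulin signal from the receptor to AKT.

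The windows of 250 bases before the annotated start are shown for the 5 genes that passed the test on refeeding and had a window in the RefSeq promoter table (GRCm38.p6). That table held windows for 6 of the 10 genes, those of Fos, Jun, Junb, Jund, Klf6 and Zfp36. Each sequence is on the strand of the gene, 5′ to 3′. Capitals mark matches, on either strand, to TGANTCA (AP-1), to TGACNTCA (the longer form bound by CREB, ATF and Jun proteins), to TGACG (the core of a cAMP response element), to the CArG box bound by SRF, or to the EGR motif GCGNGGGCG. TGACG also lies within the TGACGTCA form of TGACNTCA.
Fos: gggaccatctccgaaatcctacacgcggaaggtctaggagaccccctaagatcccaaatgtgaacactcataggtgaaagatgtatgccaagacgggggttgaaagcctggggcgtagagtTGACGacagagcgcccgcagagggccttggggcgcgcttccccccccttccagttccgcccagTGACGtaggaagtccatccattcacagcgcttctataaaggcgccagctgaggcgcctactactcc
Jun: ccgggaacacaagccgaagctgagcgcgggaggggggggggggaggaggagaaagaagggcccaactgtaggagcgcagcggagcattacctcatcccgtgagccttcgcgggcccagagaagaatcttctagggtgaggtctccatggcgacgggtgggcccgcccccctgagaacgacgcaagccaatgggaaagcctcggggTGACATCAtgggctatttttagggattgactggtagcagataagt
Junb: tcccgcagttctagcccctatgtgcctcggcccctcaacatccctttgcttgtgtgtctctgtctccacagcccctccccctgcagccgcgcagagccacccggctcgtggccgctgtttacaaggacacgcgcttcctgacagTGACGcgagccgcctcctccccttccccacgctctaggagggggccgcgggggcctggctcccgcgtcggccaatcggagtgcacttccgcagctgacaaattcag
Jund: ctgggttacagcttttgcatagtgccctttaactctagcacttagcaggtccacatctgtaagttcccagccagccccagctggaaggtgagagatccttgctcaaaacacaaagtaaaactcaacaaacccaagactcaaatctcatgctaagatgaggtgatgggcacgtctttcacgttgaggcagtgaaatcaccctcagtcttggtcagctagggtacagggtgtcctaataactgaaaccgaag
Klf6: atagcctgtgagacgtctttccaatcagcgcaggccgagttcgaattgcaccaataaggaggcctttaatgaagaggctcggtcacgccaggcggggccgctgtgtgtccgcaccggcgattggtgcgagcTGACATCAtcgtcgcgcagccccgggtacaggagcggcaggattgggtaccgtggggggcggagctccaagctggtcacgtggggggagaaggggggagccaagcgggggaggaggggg
The Fos window (chr12:85473640-85473889, plus strand) held TGACG 129 and 66 bases before the start and a TATAAA box 33 bases before it. The Jun window (chr4:95052223-95052472, minus strand) held TGACATCA 45 bases before the start, and the Klf6 window (chr13:5861239-5861488, plus strand) held TGACATCA 119 bases before it. The Junb window (chr8:84978749-84978998, minus strand) held 1 TGACG, 106 bases before the start. None of the 5 motifs was in the Jund window (chr8:70697489-70697738, plus strand), whose start is that of the deposited locus and lies upstream of the GENCODE M21 gene start at 70698949. The Jun window precedes the GENCODE M21 gene start and lies inside the deposited Jun locus, which extends to 95167318. The Zfp36 window, which is not shown, held a CArG box 58 bases and a match to GCGNGGGCG 105 bases before the start. Over all 32851 windows of this length, TGANTCA was in 6.75%, TGACNTCA in 7.49%, TGACG in 17.8%, the CArG box in 1.47%, the EGR motif in 4.7% and TATAAA in 12.4%. The matches describe these letters only, and binding was not measured here.

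Total counts per mouse ranged from 8839488 to 19542775 with a median of 13596665.5, and values are given as counts per 1000000 after TMM normalisation (CPM). Albumin and the other hepatocyte markers checked, 11 in all, had counts in every mouse. The mutation itself could not be read from gene counts. Mouse numbers in the labels fell into 3 runs. All fed mice came from the middle run, and fasted and refed mice came from the lower and the higher run, 3 of each genotype and state in each. The effect of the fed state and of the run of mouse numbers therefore cannot be told apart, whereas refed and fasted mice could be compared within runs. In the lower run the numbers of refed and fasted mice were mixed. In the higher run every refed mouse had a lower number than every fasted mouse, so state and mouse number cannot be told apart there. Set apart were 3 mice in which several of the genes lay outside the range of the rest of their group. These were replicate 3 of the refed WT mice, replicate 2 of the refed WT/Y657* mice and replicate 4 of the fasted WT/Y657* mice, where replicate numbers are names only. Comparisons that rest on these 3 mice are given with and without them, a choice made after the values were seen. Other mice also lay outside the range of their group in several genes and were not set apart. Among them were replicate 5 of the fed WT mice and replicate 5 of the fasted WT mice.

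Per length of exonic sequence in GENCODE M21, Jund had the highest median over the 36 livers, 13.6 CPM per kilobase. Zfp36 (9.44), Junb (8.85) and Ier2 (8.10) followed. The deposited loci of Zfp36 and Junb are shorter than these exonic lengths, and that of Jund is longer than its GENCODE gene. The order of the genes therefore depends on the annotation used. Klf10 (5.73) and Jun (5.56) came next, then Klf6 (3.08). Myc (1.05), Egr1 (1.01) and Fos (0.747) had the lowest medians on this scale. In raw counts Fos ranged from 5 to 89 per mouse and Egr1 from 6 to 420, so single Fos values at the low end rest on few reads. The spread between mice of 1 group, as the biological coefficient of variation fitted by edgeR, was 0.77 for Egr1, 0.579 for Fos and 0.535 for Myc, against 0.181 over all genes. Egr1 was more variable than 99.4% of the genes closest to it in level, Junb (0.407) than 99% and Fos than 97.2%. Jund had a coefficient of 0.188 and was more variable than 91.8% of the genes closest to it in level. The lowest such share among the genes described here was that of Ier2, at 88.8%. Reads of Jun, Junb, Jund and Zfp36 could include reads from a gene on the other strand at the same place (Junos, Prdx2, Gm11175 and Gm44710), since the strand setting used in counting is not given in the sources used here. The deposited Jun locus (chr4:95049034-95167318) extends far beyond the GENCODE M21 gene, which ends at 95052222. Whether the Jun counts include reads from outside that gene was not tested.

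**Figure D1:**
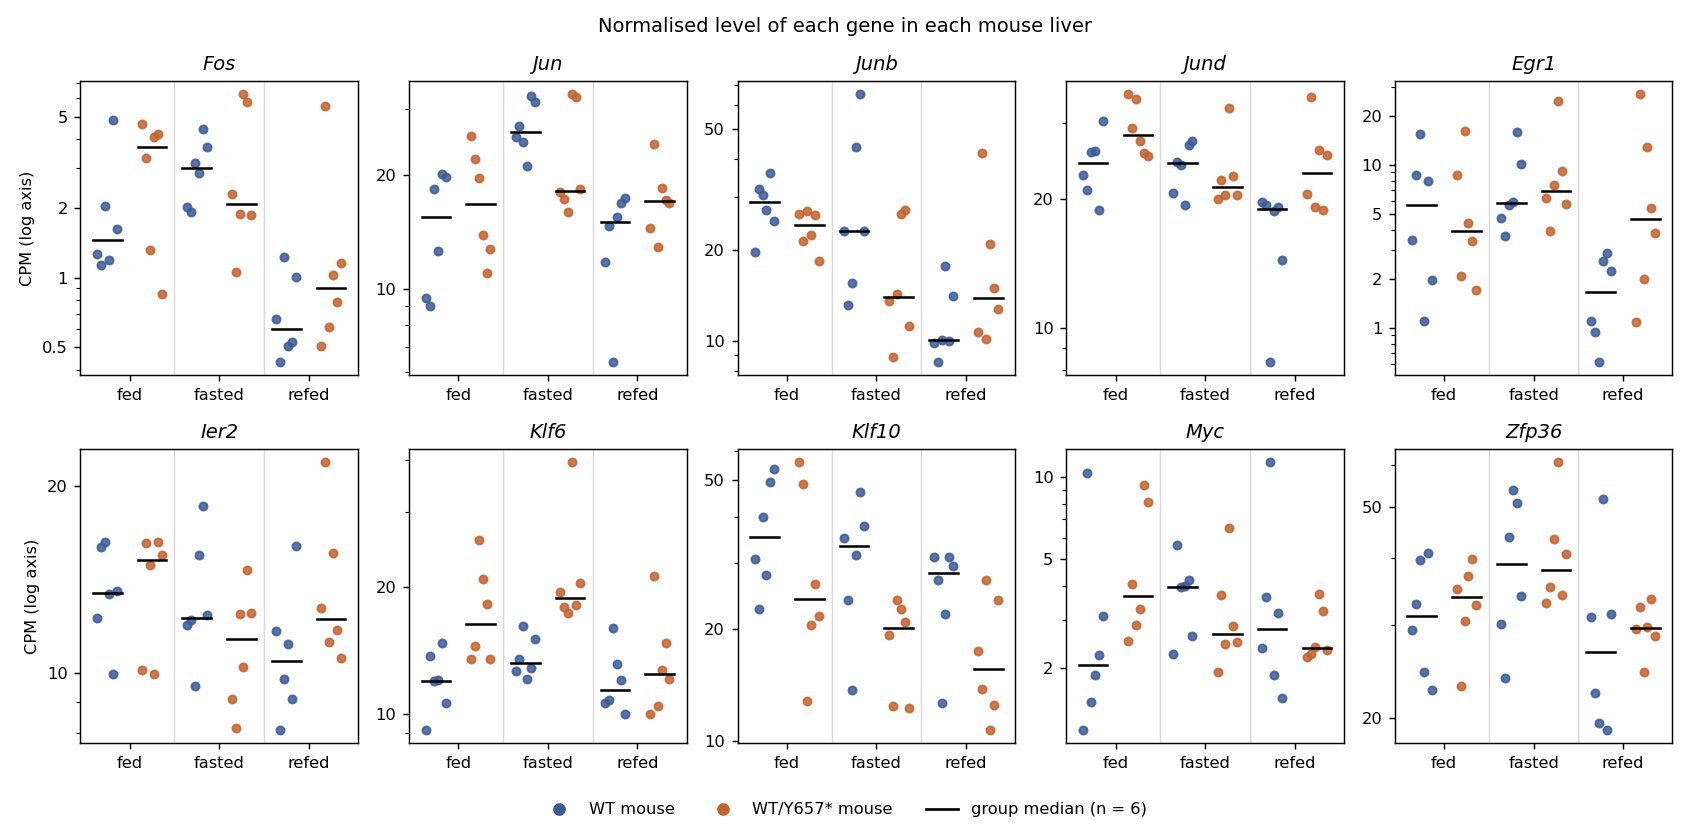
Level of each of the 10 genes in each mouse liver, as CPM on a log axis, by feeding state; each point is 1 mouse, blue for WT and orange for WT/Y657*, and the black line is the median of 6 mice. Fos and Egr1 lay lowest in refed WT livers, at medians of 0.597 and 1.67 CPM, and 1 refed WT/Y657* mouse stood at 5.58 CPM of Fos.

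The first comparison asked how the genes responded to 6 h of refeeding after the fast in WT liver. Of the 10 genes, 5 fell and none rose. Fos, Jun, Junb and Jund, which encode subunits of AP-1, and Egr1, a zinc finger factor induced by ERK signalling, were the 5. Among all genes tested 30.2% passed the test in this comparison (adjusted p under 0.05) and 13.7% were lower. The median log2 fold change of the 10 genes was -0.46, against 0.002 over all genes tested. The 10 genes were chosen with earlier results of these data known, so this median is no test of the set.

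Fos was lowest in refed WT mice, at 0.431 to 1.24 CPM with a median of 0.597, against 1.93 to 4.41 CPM with a median of 2.998 in fasted WT mice. The groups did not overlap, and Fos fell 4.20-fold (log2 fold change -2.07 ± 0.56 SE, adjusted p = 0.00475). Egr1 lay between 0.618 and 2.88 CPM in refed WT mice, with a median of 1.67, and between 3.65 and 15.8 CPM in fasted WT mice, with a median of 5.79. Here too each refed mouse was below each fasted mouse (-2.07 ± 0.73 SE, adjusted p = 0.0301). Jun lay between 6.39 and 17.4 CPM in refed and between 21.2 and 32.5 CPM in fasted WT mice, again without overlap (-0.96 ± 0.24 SE, adjusted p = 0.0027). These were 3 of the 10 genes, and 7.73% of all genes tested were lower in every refed than in every fasted WT mouse.

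Junb was at 8.54 to 17.8 CPM in refed WT mice, with a median of 10.1, and at 13.2 to 65.2 CPM in fasted WT mice, with a median of 23.1. It fell 2.60-fold (log2 fold change -1.38 ± 0.36 SE, adjusted p = 0.00347), and 4 of 6 refed mice were below all fasted mice. Jund, the Jun gene with the smallest response, was at 8.34 to 19.6 CPM in refed and 19.4 to 27.3 CPM in fasted WT mice. Its fall was 1.42-fold (-0.50 ± 0.16 SE, adjusted p = 0.0176). Within the lower and the higher run of mouse numbers, the differences in mean log2 CPM were -1.51 and -2.23 for Fos and -2.22 and -1.88 for Egr1. They were -1.29 and -0.74 for Jun, -0.82 and -1.56 for Junb and -0.64 and -0.48 for Jund, with 3 mice in each group. In the higher run the feeding state also followed the mouse number.

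The other 5 genes did not pass the test in WT mice. Zfp36, which encodes the mRNA-destabilising protein tristetraprolin, had a log2 difference of -0.42 (95% confidence interval -0.86 to 0.02), and Ier2, a nuclear protein gene induced by growth factors, had -0.28 (-0.66 to 0.09). The zinc finger genes Klf10, first known as a TGF-β inducible gene, and Klf6 had differences of -0.30 (-0.94 to 0.35) and -0.18 (-0.58 to 0.21). Myc, the growth-promoting factor, had a difference of 0.03 (-0.93 to 0.99), so that its interval covered changes of nearly 1 log2 unit either way. Fos, Jun, Junb and Jund kept their calls when any 1 mouse was left out. The call of Egr1 was lost without refed replicate 1, 2 or 3 (adjusted p = 0.0578, 0.0607 and 0.059) or fasted replicate 5 or 6 (0.0904 and 0.0535), and that of Zfp36 was gained without refed replicate 4 (log2 fold change -0.67, adjusted p = 0.0105).

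In WT/Y657* liver 1 of the 10 genes fell on refeeding, and none rose. It was Klf6, a gene also induced in injured liver and in activated stellate cells. Among all genes tested 31.3% passed the test here and 14.2% were lower. Klf6 was at 10.02 to 21.2 CPM in refed WT/Y657* mice, with a median of 12.4, and at 17.3 to 39.4 CPM in fasted ones, with a median of 18.8. All but 1 refed mouse lay below every fasted mouse (-0.71 ± 0.19 SE, adjusted p = 0.00396). The highest fasted value, 39.4 CPM, came from replicate 4, and without that mouse the log2 fold change was -0.46 (adjusted p = 0.03).

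Fos in refed WT/Y657* mice was at 0.508 to 1.16 CPM in 5 mice and at 5.58 CPM in replicate 2, with a median of 0.907. In fasted WT/Y657* mice it was at 1.06 to 6.25 CPM with a median of 2.10, so 4 of 6 refed mice were below all fasted mice. Over all 12 mice the log2 difference was -0.97 (95% confidence interval -1.996 to 0.05, adjusted p = 0.143). Without replicate 2 of the refed WT/Y657* mice, Fos fell (log2 fold change -1.95 ± 0.47 SE, adjusted p = 0.00163), and without the 3 mice named above it fell too (-1.63 ± 0.47 SE, adjusted p = 0.00781). The value of Fos in this group thus rests on 1 mouse.

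Egr1 spread widely in refed WT/Y657* mice, from 1.09 to 26.9 CPM with a median of 4.62, and overlapped the fasted values of 3.93 to 24.6 CPM. Its difference was -0.13 (-1.43 to 1.17), and that of Junb was 0.14 (-0.58 to 0.86). Junb was at 10.1 to 41.8 CPM in refed WT/Y657* mice, with a median of 13.9, and at 8.84 to 27.1 CPM in fasted ones, also with a median of 13.9. Jund and Jun differed by 0.06 (-0.26 to 0.39) and -0.37 (-0.86 to 0.12). The differences of Zfp36 (-0.48, adjusted p = 0.0924), Ier2 (0.33), Klf10 (-0.08) and Myc (-0.32) did not pass the test either. Replicate 2 of the refed WT/Y657* mice had the highest Fos, Egr1, Junb, Jund, Jun, Ier2 and Klf6 of its group, and the highest summed level of the 12 Kupffer cell and macrophage markers (946 CPM, group median 469) and of the 12 stellate cell and fibroblast markers (489 CPM, group median 433). The part of these cells in its values was not tested.

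**Figure D2:**
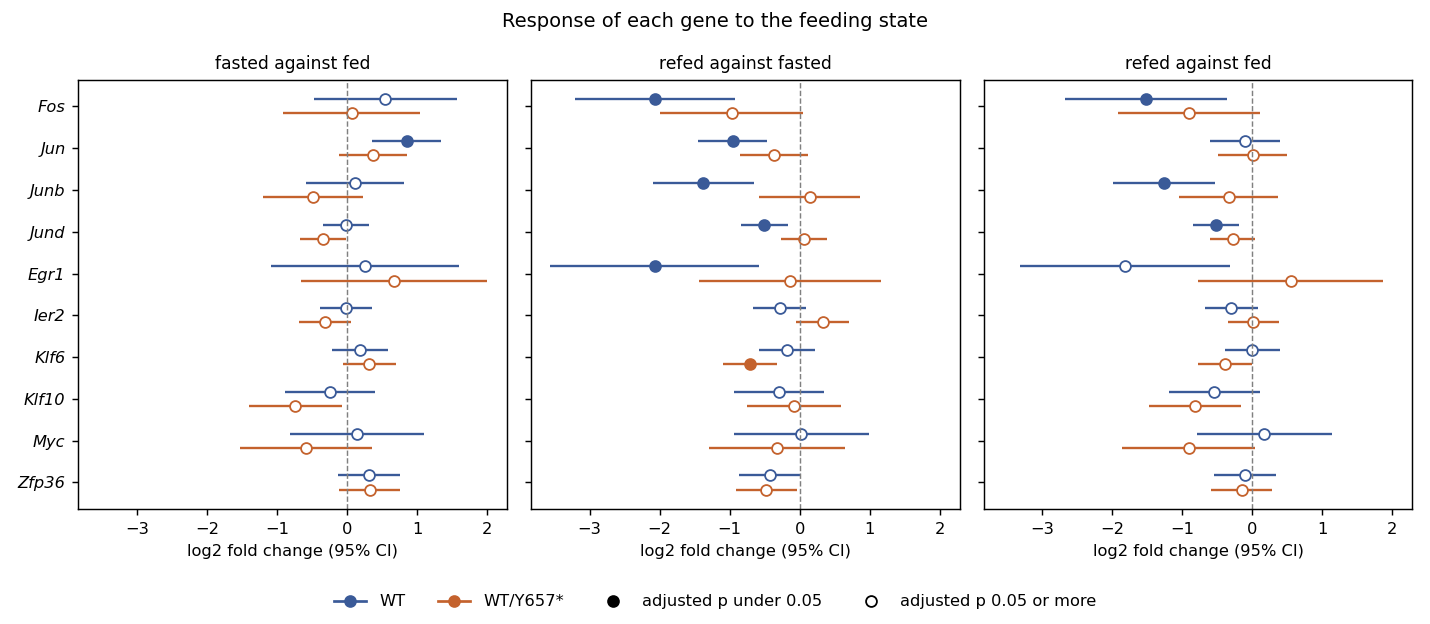
Log2 fold change of each gene between feeding states with its 95% confidence interval, WT in blue and WT/Y657* in orange; filled points passed the test (adjusted p under 0.05). On refeeding Fos, Jun, Junb, Jund and Egr1 passed in WT mice and Klf6 in WT/Y657* mice. The intervals of the 2 genotypes overlapped for Fos but not for Junb (-2.10 to -0.65 in WT, -0.58 to 0.86 in WT/Y657*). The difference between genotypes itself did not pass for Junb by edgeR's quasi-likelihood test.

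An effect that passes in 1 genotype and not in the other is not thereby shown to differ, and the difference itself was tested as an interaction. None of the 10 genes passed that test, against 2.06% of all genes, although 3 had an unadjusted p under 0.05. They were Junb (difference of the log2 fold changes 1.52 ± 0.50 SE, adjusted p = 0.111), Jund (0.57 ± 0.23 SE, adjusted p = 0.203) and Ier2 (0.61 ± 0.26 SE, adjusted p = 0.236), each with the higher log2 fold change in WT/Y657* mice. Of the other genes, Egr1 had an interval of -0.03 to 3.91 and Fos one of -0.43 to 2.63. With DESeq2 the interaction of Junb had an adjusted p of 0.05 and passed the threshold before rounding. Without replicate 2 of the refed WT/Y657* mice the difference of Junb was 1.10 (adjusted p = 0.233).

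Other genes of the same families were taken from lists chosen with earlier results of these data known. Of 11 other AP-1 and small Maf genes tested, 3 fell and none rose on refeeding in WT mice, and 4 fell and none rose in WT/Y657* mice. Among all genes tested 30.2% passed in WT and 31.3% in WT/Y657* mice. Fosl2, which encodes the Fos relative FRA-2, fell in both genotypes (log2 fold change -1.13 ± 0.18 SE in WT and -1.10 ± 0.18 SE in WT/Y657*), from 13.8 ± 3.8 to 6.36 ± 1.0 CPM (SD, n = 6) in WT mice. Maf, which encodes a large Maf factor, also fell in both (-0.53 and -0.49). Jdp2, which encodes a repressor of AP-1, fell in WT/Y657* mice (-1.34 ± 0.25 SE).

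Of 34 other immediate early genes tested, against the 30.2% and 31.3% of all genes that passed in the 2 genotypes, 10 fell and 1 rose in WT mice, and 13 fell and 3 rose in WT/Y657* mice. Their median log2 fold changes were -0.39 and -0.51. Btg1, an antiproliferative gene, fell in both genotypes (-0.91 ± 0.09 SE in WT and -1.01 ± 0.09 SE in WT/Y657*). Zfp36l1 and Zfp36l2, whose proteins bind AREs as tristetraprolin does, fell in WT mice (-0.77 ± 0.14 SE and -1.02 ± 0.15 SE). Gadd45a, a growth arrest and DNA damage gene, rose in WT/Y657* mice (2.72 ± 0.45 SE), and Ctgf, a target of YAP, fell there (-2.09 ± 0.42 SE). Nr4a1, an orphan nuclear receptor gene named after its values were seen, fell in both genotypes (-2.67 ± 0.54 SE and -1.68 ± 0.52 SE), and its mean was 5.67 ± 4.8 CPM in fasted and 0.942 ± 0.59 CPM in refed WT mice (SD, n = 6).

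**Figure D3:**
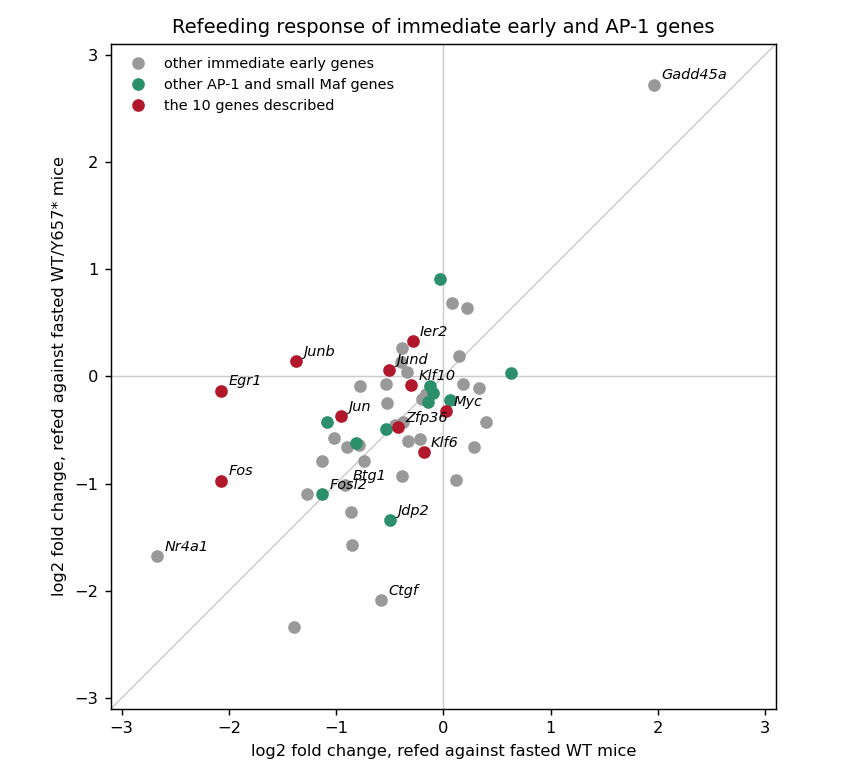
Log2 fold change on refeeding in WT mice (x axis) and in WT/Y657* mice (y axis), 1 point per gene, for the 10 genes (red), other AP-1 and small Maf genes (green) and other immediate early genes (grey); the diagonal marks equal change. Fosl2 (-1.13 and -1.10) lies on the diagonal, whereas Junb (-1.38 and 0.14) and Egr1 (-2.07 and -0.13) lie above it, with differences between genotypes that did not pass the test.

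The same shares of all genes, 30.2% in WT and 31.3% in WT/Y657* mice, stand beside the counts of the next lists. Of 11 other KLF genes, 4 fell on refeeding in WT and 5 in WT/Y657* mice, and none rose. Klf11 (-0.90 ± 0.19 SE and -1.07 ± 0.19 SE) and Klf9 (-0.56 ± 0.14 SE and -0.50 ± 0.14 SE) were among them in both genotypes. Of 41 genes of the SRF, ERK, JNK and p38 pathways, 7 rose and 9 fell in WT mice, and 6 rose and 8 fell in WT/Y657* mice. Mapkapk2, the p38 target kinase that phosphorylates tristetraprolin, fell in both (-0.76 ± 0.07 SE and -0.51 ± 0.07 SE). Of 15 Myc network genes, 4 rose and 3 fell in WT mice and 1 rose and 4 fell in WT/Y657* mice. Mlx, the partner of ChREBP, rose in both (0.55 ± 0.07 SE and 0.64 ± 0.07 SE), and Mycl1 fell in both (-1.37 ± 0.26 SE and -1.38 ± 0.26 SE). Of 25 genes for ARE binding and deadenylation, 6 rose and 7 fell in WT mice, and 3 rose and 6 fell in WT/Y657* mice. In WT mice Tob1, which recruits the deadenylase, fell (-0.76 ± 0.14 SE).

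Genes of the circadian clock and of the heat shock response were counted in the same way, against 30.2% of all genes that passed in WT and 31.3% in WT/Y657* mice. Of 17 clock genes, 5 rose and 3 fell in WT mice, and 9 rose and 3 fell in WT/Y657* mice. Npas2, a partner of Bmal1, fell (log2 fold change -4.05 ± 0.65 SE in WT and -3.55 ± 0.59 SE in WT/Y657*), and Per2, a repressor of the clock, rose (1.85 ± 0.30 SE and 1.91 ± 0.30 SE). Of 14 heat shock genes, 6 rose and 2 fell in WT mice and 6 rose and 1 fell in WT/Y657* mice, with Hsp90aa1 up by 1.14 ± 0.17 SE in WT. The hour of day at which the livers were taken is not given in the sources used here. As the paper describes it, tissues were taken before the overnight fast, at its end, or at the end of refeeding. Feeding state and hour of day therefore cannot be told apart, and the part of the hour in the fall of the AP-1 genes was not tested. Summed Kupffer cell and macrophage markers were at 333 to 738 CPM in refed and 374 to 690 CPM in fasted WT mice, and none of the 12 passed the test on refeeding in either genotype. Of 12 stellate cell and fibroblast markers, 5 fell in WT and 4 in WT/Y657* mice, with 1 higher in each. Of 12 endothelial markers 3 fell in WT and 4 in WT/Y657* mice, with 1 higher in WT, and of 11 hepatocyte markers 3 and 2 fell. Summed cholangiocyte markers were at 39.1 to 65.5 CPM in fasted and 25.2 to 36.1 CPM in refed WT mice, without overlap, and at 26.7 to 59.5 and 26.9 to 44.1 CPM in WT/Y657* mice. Of the 7 of these markers tested, 1 fell in WT and none in WT/Y657* mice. Of 13 blood cell and lymphocyte markers 1 fell in WT and 2 in WT/Y657* mice. The part of these cells in the changes was not tested.

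The next comparison was fasting against the fed state, in which the groups also differ by run of mouse numbers and which shares its fasted mice with the refeeding comparison. In WT mice 1 of the 10 genes rose and none fell, against 32% of all genes tested that passed and 14.5% that were higher. Jun lay between 8.998 and 20.1 CPM in fed WT mice and between 21.2 and 32.5 CPM in fasted ones, so that every fasted mouse was above every fed mouse. It rose 1.81-fold (log2 fold change 0.85 ± 0.24 SE, adjusted p = 0.00668), and the call held when any 1 mouse was left out (0.74 to 0.96). Over all genes tested 7.85% were higher in every fasted than in every fed WT mouse.

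Fos had a median of 1.45 CPM in fed and 2.998 CPM in fasted WT mice, but 1 fed mouse at 4.85 CPM was above all fasted mice. Its log2 difference was 0.55 (-0.48 to 1.57). Egr1 spread from 1.11 to 15.4 CPM in fed WT mice, a range that held 5 of the 6 fasted values, and differed by 0.26 (-1.09 to 1.60). The intervals of Junb (-0.58 to 0.82), Jund (-0.35 to 0.31), Ier2 (-0.39 to 0.36), Klf6 (-0.22 to 0.58), Klf10 (-0.89 to 0.40), Myc (-0.82 to 1.11) and Zfp36 (-0.13 to 0.75) all included 0.

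In WT/Y657* mice none of the 10 genes passed on fasting by edgeR's quasi-likelihood test, against 32.9% of all genes. Over all 13945 genes tested 5819 had an unadjusted p under 0.05, as had 2 of the 10 genes. They were Klf10 (log2 fold change -0.74 ± 0.32 SE, adjusted p = 0.0794) and Jund (-0.35 ± 0.16 SE, adjusted p = 0.0965). Jund was at 25.2 to 34.95 CPM in fed WT/Y657* mice and at 19.97 to 22.5 CPM in 5 fasted ones, all below the fed mice, while fasted replicate 4 was at 32.6 CPM. Without that mouse Jund fell (-0.475, adjusted p = 0.0215). Klf10 was at 12.8 to 55.9 CPM in fed and 12.3 to 23.97 CPM in fasted WT/Y657* mice, and it fell without fed replicate 3 (-0.90, adjusted p = 0.0292). Likelihood ratio and DESeq2 tests also gave no call. Jun, which rose in WT mice, was at 11.03 to 25.4 CPM in fed and 16.0 to 32.8 CPM in fasted WT/Y657* mice (0.37, -0.11 to 0.86). In the test of the genotype difference in the fasting response none of the 10 genes passed or had an unadjusted p under 0.05, against 4.35% of all genes that passed. For Jun the difference was -0.48 (-1.17 to 0.21).

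Beside the related genes on fasting stand the 32% and 32.9% of all genes that passed in WT and WT/Y657* mice. Fosl2 rose in WT (log2 fold change 0.46 ± 0.18 SE) and WT/Y657* mice (0.60 ± 0.18 SE), and so did Maf (0.29 ± 0.10 SE and 0.27 ± 0.10 SE). Of the 11 other AP-1 and small Maf genes, 2 rose in WT and 4 in WT/Y657* mice, and none fell. Jdp2 rose in WT/Y657* mice (1.21 ± 0.25 SE). Of the 34 other immediate early genes, 8 rose and 2 fell in WT mice and 6 rose and 4 fell in WT/Y657* mice. Btg1 (0.71 ± 0.09 SE and 0.54 ± 0.09 SE) and Gadd45b (2.29 ± 0.41 SE and 2.68 ± 0.38 SE) rose in both, and Cebpd, a C/EBP factor of the acute phase, rose in WT/Y657* mice (1.295 ± 0.24 SE). Egfr, the receptor for epidermal growth factor upstream of these kinases, fell in both (-2.36 ± 0.24 SE and -1.42 ± 0.23 SE).

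Refed mice were compared with fed mice as well. This comparison shares its refed mice with the refeeding comparison and its fed mice with the fasting comparison, so it is no separate evidence. In WT mice Fos, Junb and Jund were lower in refed than in fed mice, 3 of 10 genes, against 27.5% of all genes that passed and 14.3% that were lower. Junb was at 19.7 to 35.8 CPM in fed WT mice, with a median of 28.7, and every refed mouse was below them (log2 fold change -1.26 ± 0.36 SE, adjusted p = 0.0082). Over all genes tested 7.47% were lower in every refed than in every fed WT mouse. Fos (-1.52 ± 0.57 SE, adjusted p = 0.0445) and Jund (-0.52 ± 0.16 SE, adjusted p = 0.0157) overlapped between the groups, and Egr1 (-1.82 ± 0.74 SE, adjusted p = 0.0647) did not pass. The call of Jund was lost without fed replicate 6 (adjusted p = 0.051). That of Fos was lost without fed replicate 3, 5 or 6 (0.0613, 0.207 and 0.0516) or refed replicate 1, 2, 4 or 5 (0.0712, 0.085, 0.0859 and 0.0862), and without fed replicate 5 its log2 fold change was -1.02. Egr1 passed without fed replicate 4 (0.0417) or 6 (0.0491).

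In WT/Y657* mice none of the 10 genes passed between refed and fed mice, against 26.1% of all genes. Klf10 came closest (log2 fold change -0.82 ± 0.32 SE, adjusted p = 0.0589), followed by Klf6 (-0.39 ± 0.19 SE, adjusted p = 0.129), and these were the 2 with an unadjusted p under 0.05. With the likelihood ratio test and with DESeq2, 1 gene passed, Klf10 (adjusted p = 0.0417 and 0.0388). Without replicate 2 of the refed WT/Y657* mice, Fos (-1.88 ± 0.47 SE, adjusted p = 0.00288), Jund (-0.42 ± 0.16 SE, adjusted p = 0.0476) and Klf6 (-0.565 ± 0.18 SE, adjusted p = 0.0219) were lower in refed mice. Without fed replicate 3 the log2 difference of Klf6 was -0.25 (adjusted p = 0.362). Klf10 passed without refed replicate 3 or 6 (0.0343 and 0.0497) or fed replicate 3 or 4 (0.0229 and 0.0442).

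The genotypes were then compared within each feeding state, which asked whether a truncated p85α shifts the genes in mice of the same feeding state. In fed mice none of the 10 genes differed by edgeR's quasi-likelihood test, against 2.37% of all genes. Over all 13945 genes tested 2423 had an unadjusted p under 0.05, and of the 10 genes Klf6 alone did. It was at 9.18 to 14.7 CPM in fed WT and 13.5 to 25.9 CPM in fed WT/Y657* mice (log2 fold change 0.56 ± 0.19 SE, adjusted p = 0.106). It passed with library sizes alone as scaling (adjusted p = 0.0409), or when the 3 mice named above, none of them fed, were left out of the common fit (adjusted p = 0.0149). Genotype in fed mice nearly followed the mouse number, and with blocks of mouse numbers as a covariate the difference of Klf6 was 0.20 (adjusted p = 0.996). DESeq2 gave no call among the 10 genes. All 12 Kupffer cell and macrophage markers stayed short of the threshold, 11 of them with an unadjusted p under 0.05, and their sum had a median of 390 CPM in fed WT and 667 CPM in fed WT/Y657* mice. Of 13 blood cell and lymphocyte markers 2 were higher. The part of these cells in the difference of Klf6 was not tested.

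In fasted mice Klf6 was higher in WT/Y657* than in WT livers, 1 of 10 genes, against 13.1% of all genes that passed and 6.43% that were higher. It was at 12.1 to 16.2 CPM in WT mice, with a median of 13.2, and at 17.3 to 39.4 CPM in WT/Y657* mice, with a median of 18.8. Every WT/Y657* mouse was above every WT mouse (1.62-fold, log2 fold change 0.70 ± 0.19 SE, adjusted p = 0.0132), as were 2.56% of all genes tested. The differences within the lower and the higher run of mouse numbers were 0.71 and 0.54 with 3 mice in each group. Without WT/Y657* fasted replicate 4, at 39.4 CPM, the log2 fold change was 0.45 and the call was lost (adjusted p = 0.0753), although the groups still did not overlap. With all 3 mice named above left out, it was 0.45 with an adjusted p of 0.0301. Summed stellate cell and fibroblast markers were at 434 to 527 CPM in fasted WT and 459 to 664 CPM in fasted WT/Y657* mice, the highest being replicate 4. That mouse also had the highest summed endothelial (714.5 CPM) and hepatocyte markers (103600 CPM) of its group, but not the highest of the other cell types. Of the 12 stellate cell and fibroblast markers 1 was higher in WT/Y657* mice, Dcn (0.42 ± 0.12 SE). Of 12 endothelial markers 1 was higher, Lyve1 (1.32 ± 0.39 SE, adjusted p = 0.0218, 22.03 ± 11 CPM in WT/Y657* and 8.86 ± 2.0 CPM in WT mice, SD, n = 6). Their part in the difference of Klf6 was not tested.

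Junb and Klf10 had lower values in fasted WT/Y657* mice that did not pass. Junb was at 13.2 to 65.2 CPM in WT and 8.84 to 27.1 CPM in WT/Y657* mice (-0.86 ± 0.35 SE, adjusted p = 0.101). It passed without the 3 mice (-1.04, adjusted p = 0.0399), and without WT fasted replicate 5, at 65.2 CPM, it was -0.49 (adjusted p = 0.384). The difference of Junb was -0.17 in the lower run of mouse numbers and -1.32 in the higher run, so it lay mainly among the mice of 1 run. Klf10 was at 13.7 to 46.5 CPM in WT and 12.3 to 23.97 CPM in WT/Y657* mice (-0.77 ± 0.32 SE, adjusted p = 0.116), again with the larger difference in the higher run (-0.26 and -1.15). The intervals of the other 7 genes included 0, from -0.37 to 0.29 for Jund, the narrowest, to -0.99 to 1.64 for Egr1, the widest.

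Of related genes in fasted mice, where 13.1% of all genes passed, Jdp2 was higher in WT/Y657* livers (log2 fold change 1.07 ± 0.25 SE), 1 of 11 other AP-1 and small Maf genes. Of the 34 other immediate early genes, 2 were higher and 3 lower. Cebpd (1.23 ± 0.24 SE) and Ctgf (1.98 ± 0.43 SE, 29.7 ± 17 CPM against 7.67 ± 5.2 CPM, SD, n = 6) were higher. Zfp36l1 (-0.63 ± 0.14 SE) was lower, as was Zfp36l2 (-0.64 ± 0.15 SE), and of the 25 genes for ARE binding and deadenylation 2 were higher and 3 lower, with Tob1 (-0.73 ± 0.14 SE) among the latter. Zfp36 itself differed by 0.07 (-0.37 to 0.51).

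In refed mice none of the 10 genes passed by edgeR's quasi-likelihood test, where 0.0287% of all genes, 4 in number, did. Of the 13945 genes tested 1329 had an unadjusted p under 0.05. An unadjusted p under 0.05 was found for Egr1 (log2 fold change 2.265 ± 0.72 SE, adjusted p = 0.291), Jund (0.53 ± 0.16 SE, adjusted p = 0.262) and Fos (1.20 ± 0.57 SE, adjusted p = 0.508), each with the higher mean in WT/Y657* mice. For Egr1 4 of 6 WT/Y657* mice, at 3.81 to 26.9 CPM, were above all WT mice. For Jund also 4 of 6 were above all WT mice, whose lowest value of 8.34 CPM came from replicate 3. Without replicate 2 of the refed WT/Y657* mice the difference of Fos was 0.22 (adjusted p = 0.976), that of Egr1 1.48 (0.828) and that of Jund 0.39 (0.682). DESeq2 called none of the 10 genes either.

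**Figure D4:**
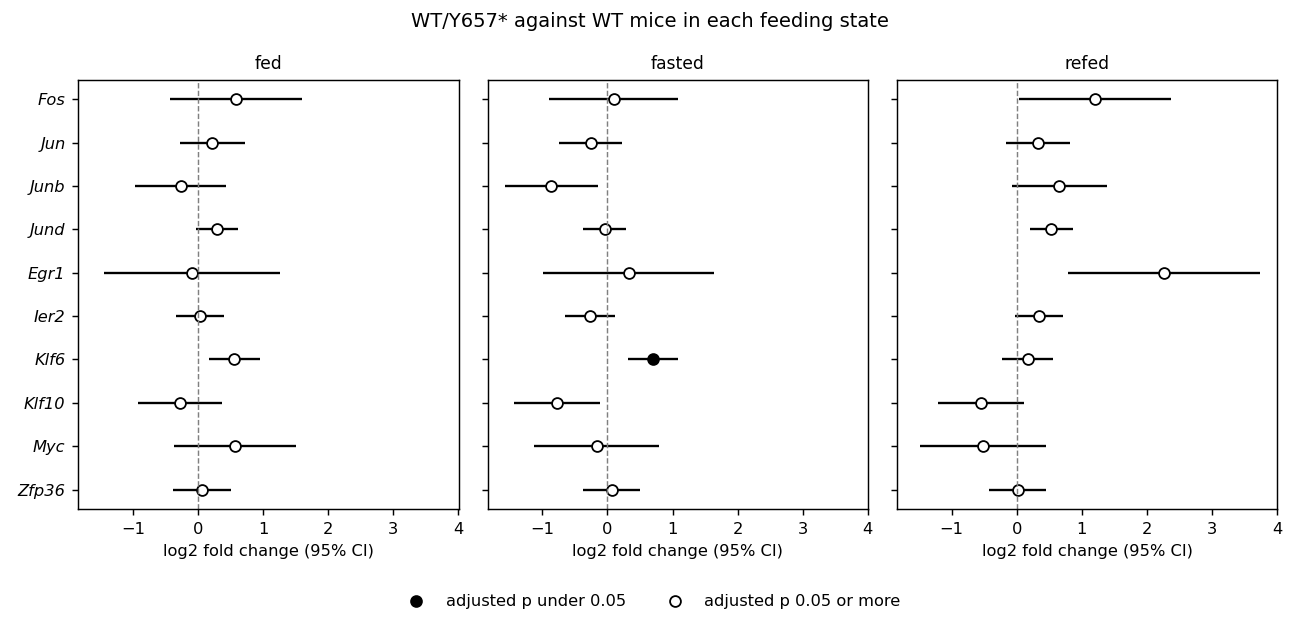
Log2 fold change of WT/Y657* against WT mice in each feeding state with its 95% confidence interval, 6 mice per group; the filled point passed the test (adjusted p under 0.05). Klf6 in fasted mice (0.70) is the filled point, and the intervals of Fos, Jund and Egr1 in refed mice lie above 0 without passing after adjustment.

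Finally the genes were compared between mice of the same group, as log2 CPM minus the group mean, over all 36 mice. The points share the libraries and their depth. Fos varied most closely with Junb (Pearson r = 0.653, permutation p = 3e-05, Spearman rho = 0.579, permutation p = 0.00037, adjusted p = 0.00027 and 0.00333 by the Benjamini-Hochberg method over the 9 relations computed). Its r was 0.521 with Egr1, 0.487 with Klf6 and 0.452 with Jun (adjusted permutation p = 0.026, 0.0353 and 0.0274). The rho of Klf6 was 0.35 and did not pass (adjusted permutation p = 0.115). Without the 2 mice farthest from the median of Fos, replicate 2 of the refed WT/Y657* mice and replicate 5 of the fed WT mice, r was 0.556 for Junb, 0.394 for Egr1, 0.324 for Klf6 and 0.359 for Jun. Over all other genes tested and all 36 mice, the middle 95% of r to Fos lay between -0.388 and 0.405. The values of Junb, Egr1, Klf6 and Jun over all 36 mice were above that range. The range was not computed without the 2 mice, so the values without them cannot be set against it.

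Within the 12 fed, 12 fasted and 12 refed mice, r between Fos and Junb was 0.513, 0.744 and 0.769. That between Fos and Jun was 0.426, 0.853 and 0.20, and that between Fos and Egr1 0.236, 0.854 and 0.629. Jund (0.196), Ier2 (0.238), Klf10 (0.259) and Zfp36 (0.288) had lower r with Fos over all mice, and Myc had 0.00309. None of these 5 passed on r, and Zfp36 passed on rank (rho = 0.388, adjusted permutation p = 0.0422). Among pairs without Fos, Junb and Egr1 (0.686) and Jun and Jund (0.685) had the highest r. Among the genes closest to Fos, of 13944 other genes, were Cd151 (0.712), Mex3c (0.666), Junb, Ppt1 (0.648) and Slc20a1 (0.636). Cd151 encodes a tetraspanin and Mex3c an RNA-binding ubiquitin ligase.

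**Figure D5:**
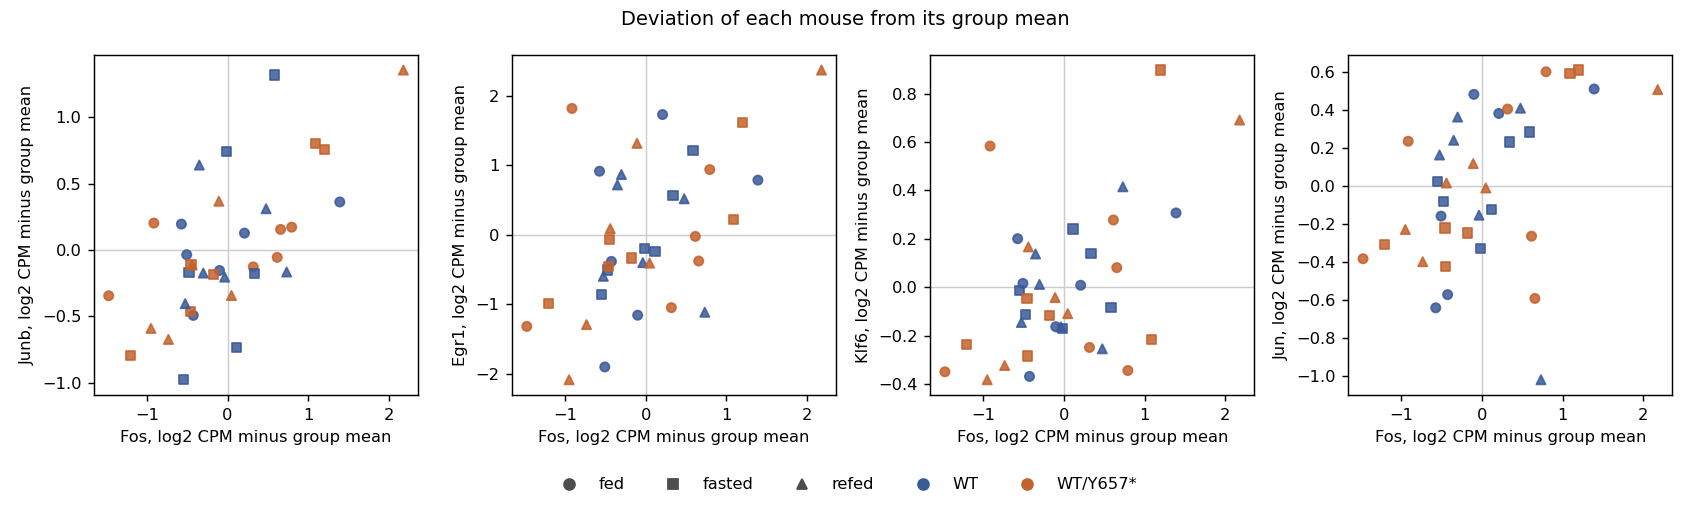
Deviation of each of 36 mice from its group mean in log2 CPM, Fos on the x axis and Junb, Egr1, Klf6 and Jun on the y axes; colour gives the genotype and shape the feeding state. Mice above their group mean in Fos tended to be above it in Junb (r = 0.653), and the mouse farthest right, at 2.18, is replicate 2 of the refed WT/Y657* mice.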

How the data were processed

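Libraries from total liver RNA of 36 mice, made with a stranded kit, were read by the authors as single reads of 50 bases. Per the labels, reads were placed with Cuffdiff and SAMtools, counted by featureCounts and analysed in edgeR, with mm9 as the build and no versions given. The gene coordinates in the table are those of GRCm38. The deposited table holds 1 estimated count per gene and mouse. Of the values above 0, 3.64% were not whole, and the expected counts were rounded before testing. A second deposited table was not used, since it holds values fitted per group without the variation between mice. Each column was matched to its sample by the column name given in the labels.

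Genes were kept by filterByExpr in edgeR 4.0.16 (R 4.3.3), which left 13945 of 38283 genes, scaled by TMM and fitted with robust quasi-likelihood dispersions over all 36 libraries. Each of the 11 contrasts was given edgeR's quasi-likelihood test (two-sided). A gene was called where its adjusted p (Benjamini-Hochberg) was under 0.05, and the adjustment ran across the whole set of tested genes. CPM values are per 1000000 TMM-scaled counts. Relations between genes used log2 CPM with a prior count of 2, minus the group mean, and 100000 permutations within groups (numpy 2.4.6, scipy 1.17.1). On simulated counts for the refeeding comparison of WT mice, 189 of 200 changed genes were recovered among 13797 genes, 91% at a log2 fold change of 1 and 98% at 2, and 5 of 194 calls were false. The changed genes were drawn at random from genes of any spread. The share recovered was not computed for genes as variable as Egr1, Fos and Myc, so these shares cannot be read as theirs.

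The 10 genes and the gene lists were chosen with earlier results of these data known. From each list, up to 3 called genes with the smallest p in a comparison were named, as were genes among the 5 with the highest r to Fos. Some genes that this rule names are not reported here. The alternatives were the likelihood ratio test, DESeq2 1.42.0, limma-voom (limma 3.58.1), other scaling and count filters, fits of the compared groups alone, the mouse number as a covariate, and each mouse left out in turn. The comparison without the 3 mice that stood apart was added after the values were seen. Total counts ranged from 8839488 to 19542775 per mouse, and Fos had as few as 5 counts in a mouse, so low values carry counting error beside the spread between mice. Each sample is 1 mouse, and no pair of the 90 pairs of mice within a group agreed within sampling noise.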

Additional observations from a re-analysis of the deposited data

Results flagged for a closer look

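In 60 groups of 6 mice, 10 genes in 6 groups, the highest or lowest mouse was compared with the rest by the gap to its nearest neighbour as a share of the range. A gap above 0.625 was found in 8 groups, where chance gives about 1 in 20, or 3 of 60, for independent groups with a normal spread. The same mice recur for every gene and the genes vary together, so 8 cannot be read as an excess over 3. All 8 were high values on this linear scale. On log2 CPM, tried after the values were seen, 4 groups passed, 3 of them among the 8 (Fos in the refed WT/Y657* mice, Klf6 and Jund in the fasted WT/Y657* mice). The other was a low value, Jund in replicate 3 of the refed WT mice (8.34 CPM, share of the range 0.64), so the count and its direction depend on the scale.

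Replicate 4 of the fasted WT/Y657* mice stood apart in Klf6 (39.4 CPM, the next mouse 20.4, share of the range 0.858), Jund (32.6 and 22.5 CPM, 0.797) and Egr1 (24.6 and 9.21 CPM, 0.745). This mouse had the highest summed stellate cell and fibroblast (664 CPM), endothelial (714.5 CPM) and hepatocyte markers (103600 CPM) of its group. Its sums of the Kupffer cell, cholangiocyte and blood cell markers were not the highest. Replicate 2 of the refed WT/Y657* mice stood apart in Fos (5.58 and 1.16 CPM, 0.871) and Junb (41.8 and 21 CPM, 0.657), and had the highest summed Kupffer cell and macrophage markers of its group (946 CPM). Fos in replicate 5 of the fed WT mice was at 4.85 CPM and at 2.06 CPM in the next mouse (0.752). Myc was at 10.4 CPM in replicate 2 of the fed WT mice, the next mouse being at 3.1 CPM (0.791), and at 11.3 CPM in replicate 3 of the refed WT mice, the next being at 3.62 CPM (0.788). The latter mouse also had the highest summed Kupffer cell, endothelial and stellate cell markers of its group. The part of these cells in the values was not tested.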

How the results depend on the processing

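No paired analysis was possible because the labels number the mice individually and the groups share no numbers. No called value changed direction under the alternatives run. Values that were not called did so without the 3 mice that stood apart, among them Egr1 between genotypes in fasted mice (0.325 to -0.239) and Myc between genotypes in refed mice (-0.516 to 0.152) and on refeeding in WT mice (0.026 to -0.595). Of the values for single genes under the alternatives, 227 kept their side of the threshold, 13 gained a call and 5 lost one. The genotype effect in fed mice was called in 330 genes, and in 516 with the likelihood ratio test, 644 with DESeq2, 756 with library size alone, 207 with no filter, 30 with the compared groups alone, none with blocks of mouse numbers and 556 without the 3 mice that stood apart; among the 10 genes, 1 was called with library size alone and 1 without the 3 mice. Of the fed mice, 3 WT/Y657* and 2 WT mice share a block of mouse numbers. The genotype effect in refed mice was called in 4 genes, and in 18 with the likelihood ratio test, 25 with DESeq2, 12 with the mouse number series as covariate and 1 without the 3 mice. The refeeding response differed between genotypes in 287 genes, in 152 with no filter and in 122 without the 3 mice, and 1 of the 10 genes was called with DESeq2. The fasting response differed in 607 genes and in 386 with no filter. Of the 10 genes, 5 were called on refeeding in WT mice and 3 with at least 10 counts in every library, a filter that removes Fos and Egr1. On refeeding in WT/Y657* mice 1 was called, and 2 with the compared groups alone or without the 3 mice. Between refed and fed WT/Y657* mice none was called by the quasi-likelihood test, 1 with the likelihood ratio test, with DESeq2 or with at least 10 counts, and 3 without the 3 mice. Without the 3 mice, 2 were called between genotypes in fasted mice and 1 on fasting in WT/Y657* mice. The call of Egr1 on refeeding in WT mice was lost with limma-voom (adjusted p = 0.0679) and no filter (0.0554), and that of Fos between refed and fed WT mice with limma-voom (0.0882), library size alone (0.0539) and no filter (0.0913). The r with Fos moved in fasted mice alone to 0.853 for Jun, 0.622 for Jund, 0.854 for Egr1 and 0.296 for Myc. In fed mice alone it moved to -0.539 for Ier2 and 0.121 for Klf6, and in refed mice alone to -0.354 for Klf10 and 0.0406 for Zfp36. The sign thus turned for Ier2 and Klf10, and in fed mice alone also for Jund (-0.145) and Myc (-0.23). When each mouse was left out in turn, genes called ranged from 68, without WT/Y657* replicate 4, to about 9.0e+02 (2.72 times the full count), without WT/Y657* replicate 1, for the genotype effect in fed mice. They ranged from 1168 to 2003 in fasted mice and 1 to 6 in refed mice. They ranged from 4069 to 4233 for fasting and 3681 to 4024 for refeeding in WT mice, and from 4080 to 4605 and 3820 to 4252 in WT/Y657* mice. They ranged from 3352 to 3677 between refed and fed WT mice, 3082 to 3708 between refed and fed WT/Y657* mice, 409 to 745 for the fasting difference and 124 to 391 for the refeeding difference between genotypes. Of the 10 genes, 4 to 6 were called on refeeding in WT and 1 to 2 in WT/Y657* mice, 2 to 4 between refed and fed WT and 0 to 3 between refed and fed WT/Y657* mice, 0 to 1 between genotypes in fasted mice and 0 to 1 on fasting in WT/Y657* mice. Fos, with 5 to 89 counts per mouse, is the gene whose values depth limits most.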
